A study of Mus musculus with 2 samples.

Results

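The genes described here encode the enzymes that write DNA methylation (Dnmt1, Dnmt3a and Dnmt3b), the factor that directs the copying of methylation at replication (Uhrf1), the enzymes that oxidise it (Tet1, Tet2 and Tet3), and the pair that protects methylation at imprinted loci (Trim28 and Zfp57). They were chosen by name, with earlier results of these data known. All 9 were found among the 35275 Ensembl gene identifiers of the deposited count table. None of them was at 0 counts in either library, and all 9 were measured, meaning that they had at least 20 counts over both libraries. Their values are those of 2 RNA sequencing libraries of mouse mesenchymal stem/progenitor cells (MSPC), marrow stromal cells that support blood stem cells. The control library came from Ptpn11+/+ and the mutant library from Ptpn11E76K/+ animals, where E76K is an activating change in the phosphatase SHP2. Animals of both groups were C57BL/6 and carried Nestin-Cre, a recombinase placed under control of the nestin gene, so the controls share the Cre, and the age of the animals is not given. Cells were sorted freshly from bone marrow as CD140+ and Sca-1+ cells that lack CD45, Ter-119 and CD31, and polyadenylated RNA was enriched. Each genotype has 1 library, while the submitters' design text speaks of 2 replicates, and whether a library pools animals was not given in the sources used here.

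In mammals, methyl groups on the cytosine of CpG pairs are placed on new sites mainly by DNMT3A and DNMT3B and are copied to the daughter strand by DNMT1, which UHRF1 brings to newly replicated DNA. TET proteins oxidise methylcytosine, which starts its removal by base excision repair or by dilution over cell divisions. ZFP57 binds a methylated motif at imprinted control regions and brings in TRIM28 (KAP1), a scaffold for histone methyltransferases and DNA methyltransferases, and in this way the parental mark survives the reprogramming of the early embryo. In the marrow, DNMT3A and TET2 are best known as genes that are often mutated in blood cell cancers.

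The promoters of the genes on which the results turn are shown first, because CpG pairs, the substrate of these enzymes, are spread very unevenly over them and because the maintenance pair shares a motif. The sequences are from RefSeq on build GRCm38.p6, run 5′ to 3′ on the strand of the gene, and cover 250 bases before to 50 bases after an annotated start. In the windows of Dnmt1 (chr9:20952574-20952873, minus strand) and Uhrf1 (chr17:56304063-56304362, plus strand) the capitals mark E2F-type letters, the binding motif of the factors that drive S phase genes.
Dnmt1: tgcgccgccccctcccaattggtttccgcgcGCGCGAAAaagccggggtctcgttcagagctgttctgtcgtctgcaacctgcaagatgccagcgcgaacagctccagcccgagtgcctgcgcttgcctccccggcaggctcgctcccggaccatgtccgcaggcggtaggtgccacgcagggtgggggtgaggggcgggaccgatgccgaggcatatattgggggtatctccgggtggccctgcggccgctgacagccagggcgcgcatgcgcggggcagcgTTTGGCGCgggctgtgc
Uhrf1: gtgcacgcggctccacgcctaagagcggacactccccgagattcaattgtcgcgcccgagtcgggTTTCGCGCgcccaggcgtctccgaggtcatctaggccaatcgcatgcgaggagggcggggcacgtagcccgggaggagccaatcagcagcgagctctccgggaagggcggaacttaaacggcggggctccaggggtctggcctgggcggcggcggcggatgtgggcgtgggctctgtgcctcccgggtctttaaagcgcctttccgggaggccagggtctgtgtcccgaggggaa
In those of Tet1 (chr10:62887275-62887574, minus strand), Tet2 (chr3:133544341-133544640, minus strand) and Zfp57 (chr17:37000913-37001212, plus strand) the capitals mark CpG pairs.
Tet1: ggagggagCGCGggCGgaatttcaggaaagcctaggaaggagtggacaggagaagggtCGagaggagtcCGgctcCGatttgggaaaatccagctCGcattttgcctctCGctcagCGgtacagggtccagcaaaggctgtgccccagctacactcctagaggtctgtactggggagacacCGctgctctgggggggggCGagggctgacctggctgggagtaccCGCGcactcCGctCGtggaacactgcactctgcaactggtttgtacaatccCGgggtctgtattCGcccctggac
Tet2: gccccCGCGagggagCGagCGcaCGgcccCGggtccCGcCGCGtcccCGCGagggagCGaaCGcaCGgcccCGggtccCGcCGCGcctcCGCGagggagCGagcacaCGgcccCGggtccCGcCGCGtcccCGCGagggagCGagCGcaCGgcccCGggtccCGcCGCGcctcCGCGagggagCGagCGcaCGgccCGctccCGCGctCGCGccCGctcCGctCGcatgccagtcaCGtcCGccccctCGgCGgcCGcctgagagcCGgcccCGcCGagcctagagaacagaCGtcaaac
Zfp57: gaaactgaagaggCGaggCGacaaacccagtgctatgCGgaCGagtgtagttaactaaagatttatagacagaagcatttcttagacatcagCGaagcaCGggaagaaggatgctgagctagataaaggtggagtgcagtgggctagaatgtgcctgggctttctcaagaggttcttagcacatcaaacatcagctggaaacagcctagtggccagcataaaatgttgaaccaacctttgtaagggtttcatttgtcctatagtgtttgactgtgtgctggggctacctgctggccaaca
The Tet2 window held 57 CpG pairs, more than 99.85% of the 32851 windows in the table, whose median was 7. The Tet1 window held 17 and the Zfp57 window 6. The other 2 annotated windows of Zfp57 held 4 and 9 CpG pairs, so all 3 lay near that median. The Dnmt1 and Uhrf1 windows printed here held 33 CpG pairs each. Neither methylation nor binding was measured in these samples.

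The E2F-type letters searched were TTTGGCGC, TTTCCCGC, TTTCGCGC and TTTGCCGC on both strands. Among the 16 annotated windows of the 9 genes, these 2 alone held a match, while 2.27% of all windows did. The Dnmt1 window held GCGCGAAA, the reverse complement of TTTCGCGC, 219 bases before its annotated start and TTTGGCGC 33 bases after it. The Uhrf1 window held TTTCGCGC 185 bases before its annotated start. All distances here are to the annotated start of the printed window. Both genes have other annotated starts, and which start these cells use was not measured, so the distances need not hold for the start in use. None of these matches overlapped another or a CCAAT box, the other motif searched (CCAAT on both strands, in 37.4% of windows). CCAAT boxes were present in both printed windows, at 107 and 150 bases before the start of Uhrf1 and at 32, 233 and 236 bases before that of Dnmt1, where the last 2 overlap each other. Counted by gene, the match was present for 2 of the 9 genes (22.2%) and for 7 of 18 replication genes with a window (38.9%). It was present for 470 of 9990 measured genes (4.7%). The motifs were chosen after values or letters were seen, so these shares are descriptive only. Each of the E2F-type words holds a CpG pair, and the windows compared were not matched for CpG content. A match is a stretch of letters and not a shown binding site, and the other annotated starts of Dnmt1 (2) and Uhrf1 (1) had none.

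The libraries held 22328659 (control) and 18010963 (mutant) counts, which limits precision for the rarest of these genes. Levels are in CPM, counts scaled to library totals that were adjusted by TMM (trimmed mean of M values), and levels that are compared between genes are CPM per kb of the longest annotated transcript. Ratios are mutant over control, or control over mutant for genes described as lower, with a 95% exact Clopper-Pearson interval that covers counting error only. A gene was called higher or lower when this whole interval lay beyond 2-fold. With 1 library per genotype there is no spread between animals and no test, so each difference is one between 2 libraries. In such bulk RNA, fewer cells that express a gene and less RNA per cell cannot be told apart. Ptpn11 had 5958 and 5039 counts, and gene counts do not separate its alleles. Of the sort's genes Pdgfra (2073 and 1792 counts), Pdgfrb (6075 and 3721), Ly6a (2177 and 612, the gene of Sca-1) and Nes (5192 and 10785) were present in both libraries, while Ptprc (CD45) had 1 and 12 counts and Pecam1 (CD31) 5 and 2. Ly6a was called lower and Nes higher. The 20 monocyte and macrophage markers summed to 15.1 CPM (control) and 72.1 CPM (mutant), and of 15 measured, 12 were called higher and 0 lower. Lyz2 had 11 and 276 counts and Lcp1 2 and 76, while Itgb2, Ctss, Laptm5, Itgam, C1qa and Tyrobp were at 0 counts in the control and had 20 to 49 in the other library. The 12 epidermal markers summed to 26.4 and 21.5 CPM, with Trp63 called lower (315 and 16 counts), Dsp higher (6 and 81) and Krt1, Dsg3 and Epcam at 0 in both, and the 8 endothelial markers to 1.30 and 2.47 CPM with no call. The part of such cells in the differences below was not tested.

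Of the 9 genes, Zfp57 was called higher in the mutant library, and Tet1 and Tet2 were called lower. That is 1 of 9 higher, where 6.98% of the 13142 measured genes were, and 2 of 9 lower, where 8.29% were. The other 6 were not called at 2-fold. Dnmt1 and Uhrf1 lay close to the threshold and passed 1.5-fold with their whole interval, so that 3 of the 9 were higher beyond 1.5-fold (15.7% of measured genes) and 2 lower (15.6%). Beyond 4-fold only Tet1 passed among the 9, in the lower direction, as did 2.02% of measured genes. In either direction together, 15.3% of measured genes were called at 2-fold, 31.3% at 1.5-fold and 3.71% at 4-fold. The median log2 ratio of the 9 was -0.05, against 0.01 for all measured genes, with 4 members above 0 and 5 below it. With the length and GC trends described below removed, the median of the 9 was 0.31, against 0.07 for all measured genes.

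**Figure D1:**
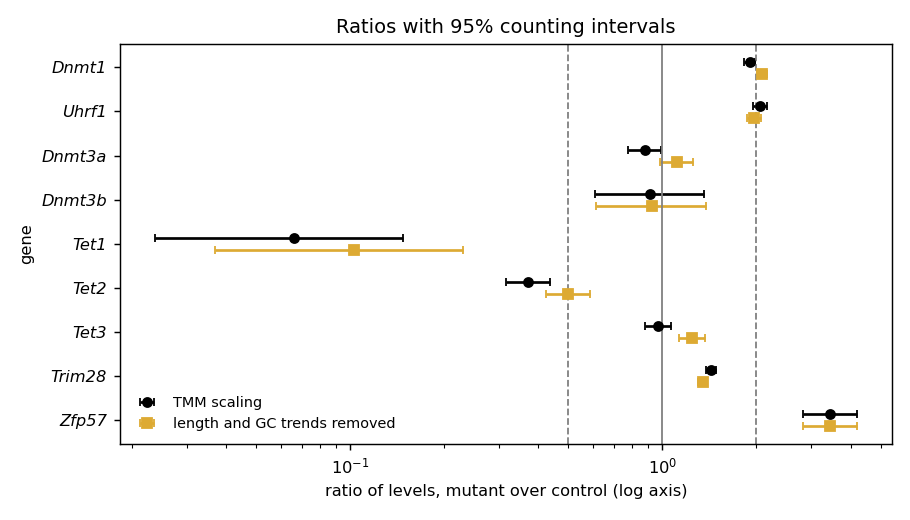
Ratio of the mutant to the control level (log axis) of each of the 9 genes, with 95% counting intervals, for TMM scaling (circles) and after removal of the length and GC trends (squares). Dashed lines mark 2-fold. Zfp57 (3.44) lies right of them, Tet1 (0.066) and Tet2 (0.372) left, and Dnmt1 and Uhrf1 sit at the right line, while the squares bring Tet2 to the left line (0.499).

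Among the maintenance genes, Dnmt1 (ENSMUSG00000004099, chromosome 9), the enzyme that copies methylation at replication, had 4489 control and 6413 mutant counts, or 194 and 369 CPM. It was 1.90-fold higher in the mutant library (1.83 to 1.97) and was not called. Uhrf1 (ENSMUSG00000001228, chromosome 17), whose protein reads hemimethylated CpG pairs and recruits DNMT1, had 2406 and 3714 counts, or 104 and 214 CPM. It was 2.05-fold higher (1.95 to 2.16), also without a call, since its interval included 2-fold. The mutant library was the higher one for both. For each Dnmt1 count there were 0.536 Uhrf1 counts among control reads and 0.579 among mutant reads, a change of 1.08-fold (1.01 to 1.15) on which a factor common to all genes of a library has no effect. Ratios depended on the length and GC content of transcripts, so each was also computed with these trends removed. Then Dnmt1 was called higher (2.08-fold, 2.005 to 2.16) and Uhrf1 was 1.97-fold higher (1.87 to 2.07) without a call. Their proportion then turned to a change of 0.946-fold (0.887 to 1.01), an interval that includes no change. Over the 5 other scalings, that one included, Dnmt1 was 1.74-fold to 2.08-fold higher and was called under 1 of them. Uhrf1 was 1.88-fold to 2.06-fold higher and was called under 0 of the 5.

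The de novo enzymes differed less. Dnmt3a (ENSMUSG00000020661, chromosome 12), the main de novo methyltransferase of adult tissues, had 670 and 443 counts, or 29.0 and 25.5 CPM, and was 1.14-fold lower in the mutant library (1.01 to 1.28), but 1.11-fold higher (0.982 to 1.25) with the length and GC trends removed. Dnmt3b (ENSMUSG00000027478, chromosome 2), which is best known from the early embryo, had only 64 and 44 counts, or 2.77 and 2.53 CPM. Its ratio of 0.914 had an interval of 0.608 to 1.36, so differences of up to 1.64-fold lower or 1.36-fold higher lay within its counting error. Between the 2 de novo genes the proportion of counts was 0.0955 Dnmt3b to 1 Dnmt3a in the control library and 0.0993 in the mutant one. Dnmt3a counts were 0.149 per Dnmt1 count for control and 0.0691 for mutant cells, which is a 2.16-fold lower proportion (1.90 to 2.46), or 1.88-fold lower (1.65 to 2.13) with the length and GC trends removed. Per kb, Dnmt1 made up 90.1% of the summed DNMT level in the control library and 95.1% in the mutant one, Dnmt3a 8.15% and 3.98%, and Dnmt3b 1.75% and 0.887%.

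The TET genes split. Tet1 (ENSMUSG00000047146, chromosome 10), whose protein is abundant in embryonic stem cells and carries a CXXC domain that binds CpG-rich DNA, had 121 control counts but 6 mutant counts, or 5.23 and 0.345 CPM. It was 15.2-fold lower (6.77 to 42.1) and its log2 ratio was above that of only 0.86% of measured genes. Tet2 (ENSMUSG00000040943, chromosome 3), which lacks that domain and is best known from blood stem cells, had 715 and 200 counts, or 30.9 and 11.5 CPM, and was 2.69-fold lower (2.29 to 3.16). With the length and GC trends removed Tet2 lost its call, at 2.003-fold lower (1.71 to 2.35), while Tet1 was still called, at 9.74-fold lower (4.34 to 27.1). These transcripts are long and AT-rich, at 14369 bases and 43.7% GC for Tet1 and 9179 bases and 45.4% GC for Tet2, and the trend for measured genes of that length and GC content was itself below 0, at -0.64 and -0.42 on the log2 scale.

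Tet3 (ENSMUSG00000034832, chromosome 6), the third of the family and the one that acts in the fertilised egg, had 1010 and 733 counts, or 43.7 and 42.2 CPM. It was 1.04-fold lower (0.941 to 1.14), but 1.24-fold higher (1.13 to 1.37) without the length and GC trends. Its transcript has 10904 bases and 53.4% GC, with a trend of -0.36. Set against Tet3, a comparison that a factor common to a whole library leaves as it is, Tet2 had 0.708 control and 0.273 mutant counts per Tet3 count, a 2.59-fold lower proportion (2.15 to 3.13), or 2.49-fold lower (2.06 to 3.005) with the length and GC trends removed. Tet1 counts were 0.12 and 0.00819 for each Tet3 count, 14.6-fold lower (6.48 to 40.9), or 12.1-fold lower (5.35 to 33.8) with those trends removed. Tet1 was also 5.64-fold lower relative to Tet2 (2.46 to 15.9), or 4.86-fold lower (2.12 to 13.7) with the trends removed. Per kb, Tet3 supplied 51.8% of the summed TET level in the control library and 75.2% in the mutant one, Tet2 43.5% and 24.4%, and Tet1 4.71% and 0.467%. All TET counts together were 1846 and 939, or 1.48-fold lower in the mutant library (1.37 to 1.60), whereas the DNMT counts were 5223 and 6900, or 1.76-fold higher (1.69 to 1.82). Both sums were computed under TMM scaling only, and with the length and GC trends removed Tet3 was higher while Tet1 and Tet2 were lower. Dnmt1 alone held 4489 and 6413 of the DNMT counts, and the ratios of Dnmt3a and Dnmt3b were 0.880 and 0.914.

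**Figure D2:**
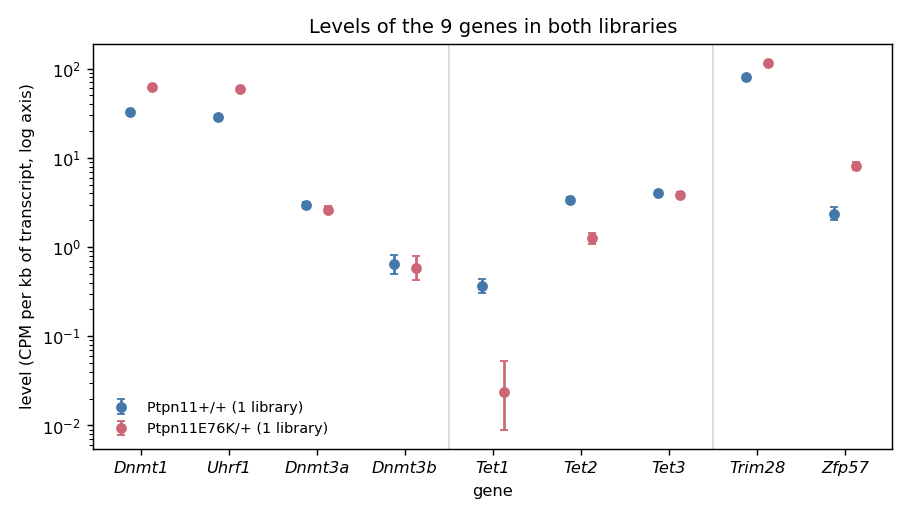
Level of each gene in CPM per kb of its longest transcript (log axis) in the control (blue) and mutant (red) library, 1 library each, with 95% exact Poisson intervals. Trim28, Dnmt1 and Uhrf1 lie at or above 29.0 in both libraries and the other 6 at or below 8.13, and Tet1 shows the widest gap, from 0.364 to 0.024.

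Of the imprint guardians, Trim28 (ENSMUSG00000005566, chromosome 7) was the most abundant of the 9 genes per kb in both libraries. It had 6028 and 6472 counts, or 261 and 372 CPM, and was 1.43-fold higher in the mutant library (1.38 to 1.48) without a call. Under the 5 other scalings Trim28 was 1.31-fold to 1.43-fold higher, also without a call. Zfp57 (ENSMUSG00000036036, chromosome 17), a KRAB zinc finger gene that is best known from oocytes and embryonic stem cells, had 142 and 367 counts, or 6.14 and 21.1 CPM. It was 3.44-fold higher (2.82 to 4.20) and was called higher under all 5 other scalings, at 3.15-fold to 3.44-fold. Its log2 ratio was above that of 96.4% of measured genes. Relative to Trim28, Zfp57 counts went from 0.0236 for each Trim28 count to 0.0567, 2.41-fold higher (1.97 to 2.95).

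In the control library the order per kb was Trim28 (80.3), Dnmt1 (33.1), Uhrf1 (29.0), Tet3 (4.005), Tet2 (3.37), Dnmt3a (2.99), Zfp57 (2.36), Dnmt3b (0.641) and Tet1 (0.364), all in CPM per kb. Counting intervals of neighbours overlapped between Tet2 and Dnmt3a and between Dnmt3a and Zfp57. In the mutant library Trim28 (115), Dnmt1 (62.8) and Uhrf1 (59.6) again led, with overlapping intervals for Dnmt1 and Uhrf1, and Zfp57 (8.13) came next, before Tet3 (3.87), Dnmt3a (2.63), Tet2 (1.25), Dnmt3b (0.586) and Tet1 (0.024). Zfp57 thus moved from the seventh to the fourth place and Tet2 from the fifth to the seventh. Among all measured genes the Zfp57 level stood above 25.3% in the control library and 52.7% in the mutant one, and that of Tet1 above 6.62% and 0.62%. These levels assume the longest transcript of each gene, which need not be the one these cells use.

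**Figure D3:**
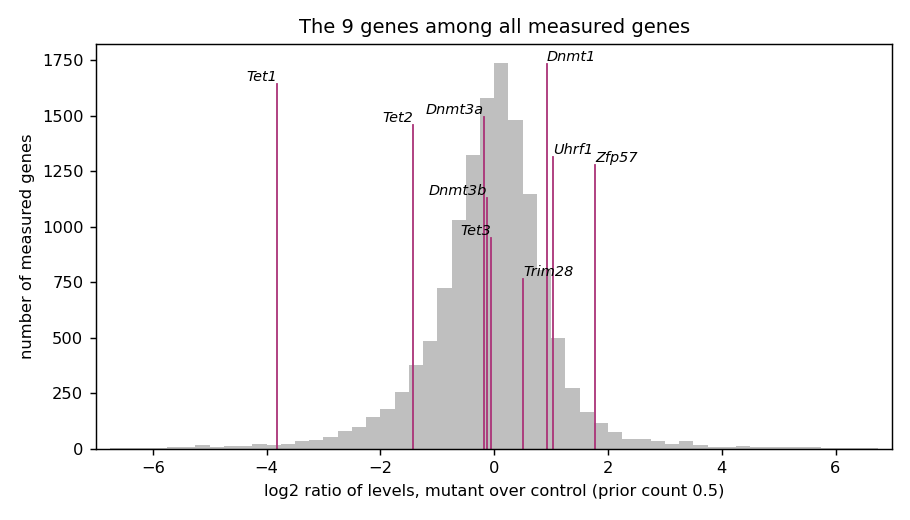
Number of measured genes (13142 in all) by log2 ratio of the mutant to the control level, with a prior count of 0.5 per library, and the 9 genes as vertical lines whose heights carry no value. Tet1 (-3.81) lies in the lower tail and Zfp57 (1.78) in the upper one, while Dnmt3a, Dnmt3b and Tet3 lie close to 0.

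The partners of these enzymes were then read from 5 lists with 76 genes, of which 69 were measured. Of the 69, 8 were called higher (11.6%) and 8 lower (11.6%), with a median log2 ratio of 0.10. Of all measured genes, 6.98% were called higher and 8.29% lower. The 8 called lower include the X-linked genes Ogt, Atrx and Zbtb33. On the X chromosome 45.9% of 431 measured genes were called lower, against 6.99% on the autosomes, so the share of lower calls is not specific to these lists. With the length and GC trends removed, 5 genes of the lists were called lower. Of 14 measured partners of DNMT1 and UHRF1, 1 was called higher and 0 lower (median 0.17). The gene called was Cdca7, which encodes the cofactor of the remodeller HELLS, with 313 and 618 counts and a 2.63-fold higher level (2.29 to 3.02). Hells itself, whose product opens nucleosomes for maintenance methylation, was 1.80-fold higher (1.67 to 1.95). The replication clamp gene Pcna was 1.70-fold (1.64 to 1.77) and the DNA ligase gene Lig1 1.75-fold (1.65 to 1.85) higher, and these 3 were not called, although Hells was (2.51-fold) with the length and GC trends removed. Dnmt3l, the catalytically inactive helper of the de novo enzymes, had 0 and 4 counts, and Dppa3, which opposes UHRF1 in the egg, had 0 in both libraries.

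Genes of DNA replication were read beside Dnmt1 and Uhrf1, which act at the replication fork. Of 23 measured replication and proliferation genes, 6 were called higher and 0 lower, with a median log2 ratio of 0.84. A ratio above 1 was found for 22, among them Mki67 at only 1.00006. Among all 13142 measured genes 6.98% were called higher and 8.29% lower, and 6604 had a log2 ratio above 0. The licensing factor gene Cdt1 was 3.77-fold (3.39 to 4.22), the ribonucleotide reductase gene Rrm2 2.74-fold (2.64 to 2.83), and the helicase genes Mcm5 and Mcm3 2.57-fold (2.44 to 2.70) and 2.55-fold (2.42 to 2.69) higher. The proliferation marker gene Mki67 had 11194 and 8416 counts, with an interval of 0.972 to 1.03 for its ratio. With the length and GC trends removed, Mki67 was 1.35-fold higher (1.32 to 1.39) without a call. The log2 ratios of Dnmt1 (0.93) and Uhrf1 (1.04) lay within the range of this list, -0.60 to 1.92. The lower end is Pola1, the only gene of the list with a ratio below 1. It lies on the X chromosome, whose measured genes had a median log2 ratio of -1.15. The part of cell cycle phase in the Dnmt1 and Uhrf1 values was not tested.

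Among 18 measured genes of base excision repair and TET regulation, 3 were called higher and 3 lower (median 0.02). The shares over all measured genes were 6.98% and 8.29%. Ogt, whose sugar transferase binds TET2 and TET3, had 11414 and 1696 counts, and its level was 5.06-fold lower (4.81 to 5.33). Idh1, whose enzyme makes the co-substrate of TET proteins, had 2038 and 495 counts, and its level was 3.10-fold lower (2.80 to 3.42), and Cxxc5, which encodes a CXXC domain protein that binds TET2, was 2.33-fold lower (2.16 to 2.50). The abasic endonuclease gene Apex1 was 2.50-fold (2.08 to 3.02), Gadd45b 2.26-fold (2.09 to 2.45) and Gadd45g 2.23-fold (2.12 to 2.34) higher, and none of these 3 kept a call after removal of the length and GC trends, where they were 2.17-fold (1.80 to 2.62), 1.90-fold (1.75 to 2.06) and 1.87-fold (1.78 to 1.96) higher. With plain total counts (2.33-fold, 2.11-fold and 2.07-fold) and with totals that omit the most abundant transcripts, these 3 were likewise not called, and the number of genes called higher over all 5 lists was then 5 in place of 8. Tdg, the glycosylase that removes oxidised methylcytosine, was 1.63-fold higher (1.51 to 1.76) without a call. Idh2, whose mitochondrial enzyme makes the same co-substrate as IDH1, had 2951 and 2031 counts, a ratio of 0.915 (0.865 to 0.969).

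Of 7 readers of methylated CpG, 3 were called lower and 0 higher (median 0.00), where 8.29% and 6.98% of all measured genes were. Among them, Zbtb33, the gene of Kaiso, was 3.06-fold (2.70 to 3.47) and Zbtb4 2.45-fold (2.29 to 2.62) lower, and without the length and GC trends Zbtb33 alone was called, with Zbtb4 at 2.08-fold lower (1.94 to 2.23). Of 16 measured partners of TRIM28 and other guardians of imprints, 2 were called lower and 0 higher (median 0.02). The chromatin remodeller gene Atrx had 8936 and 1689 counts, and its level was 3.98-fold lower (3.78 to 4.19). Zfp445, whose zinc finger protein protects imprints together with ZFP57, had 964 and 265 counts, and its level was 2.74-fold lower (2.39 to 3.14), opposite to Zfp57, but it lost its call once length and GC trends were removed, at 2.17-fold lower (1.89 to 2.50). Setdb1, the histone methyltransferase gene of the TRIM28 complex, was at 1.02-fold (0.935 to 1.12), and Cbx5, the gene of a heterochromatin protein, was 1.96-fold higher (1.89 to 2.03) without a call, but passed with the trends removed (2.72-fold). Ogt, Atrx and Zbtb33 lie on the X chromosome, where 45.9% of 431 measured genes were called lower and the median log2 ratio was -1.15, against 6.99% and 0.03 on the autosomes. None of the 9 genes is X-linked. The part of an X-wide difference in these 3 values was not tested.

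Of 14 measured genes that supply or use the methyl donor S-adenosylmethionine, 4 were called higher and 0 lower (median 0.78), and 11 had a ratio above 1. Over all 13142 measured genes 6.98% were called higher and 8.29% lower, and 6604 had a log2 ratio above 0. All 4 called genes belong to folate one-carbon metabolism. Shmt1 had 248 and 568 counts, and its level was 3.05-fold higher (2.62 to 3.55), its mitochondrial counterpart Shmt2 2.56-fold (2.44 to 2.69), Mthfd2 2.48-fold (2.31 to 2.66) and Mthfd1 2.42-fold (2.26 to 2.59). Mat2a, which encodes the enzyme that makes S-adenosylmethionine, was 1.74-fold (1.67 to 1.82), and Ahcy, which clears its by-product, 1.89-fold higher (upper bound just under 2-fold), neither with a call. The 4 called genes were also called under both of those other totals.

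**Figure D4:**
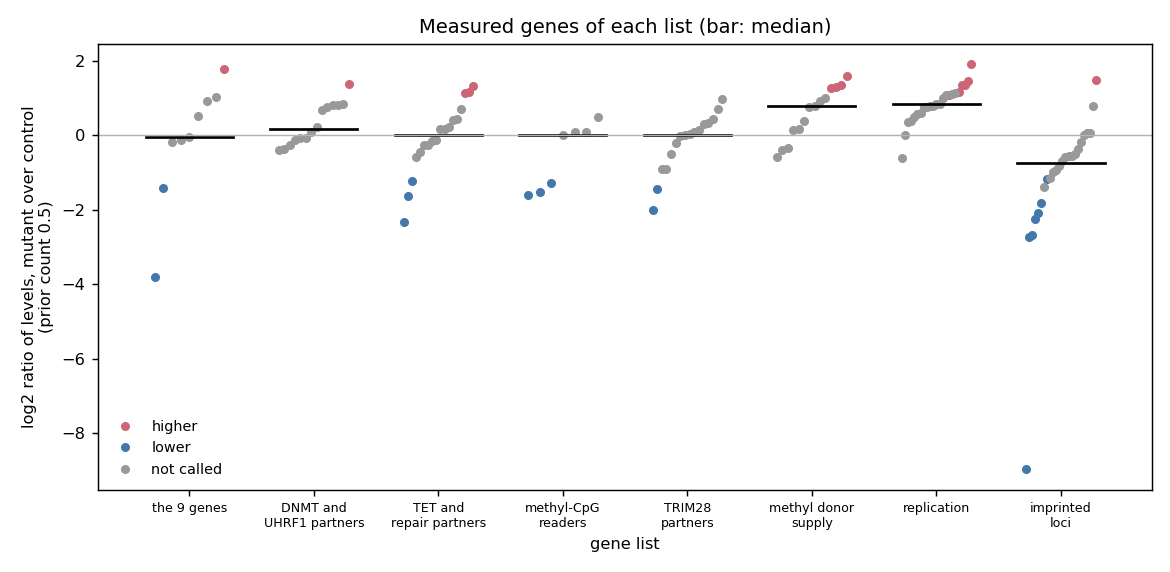
Log2 ratio of the mutant to the control level (prior count of 0.5 per library) of each measured gene of the 9 genes and 7 related lists, with red points called higher, blue points called lower, grey points not called, and a bar at each list's median. The methyl donor (0.78) and replication (0.84) medians lie above 0 and that of the imprinted loci (-0.75) below it, while the point at the bottom is Peg3.

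Genes at imprinted loci and germ cell genes, listed as possible readouts of DNA methylation, were read last. Methylation was not measured, so which of these genes depend on it in these cells is not known. Of 24 measured genes at imprinted loci, 7 were called lower and 1 higher in the mutant library (median -0.75). Of all measured genes, 8.29% were called lower and 6.98% higher. With the length and GC trends removed, 6 genes at imprinted loci were called lower and 0 higher (median -0.67). Peg3, a paternally expressed gene whose control region ZFP57 binds, had 335 control counts and none in the mutant library. By the bound of the exact interval used for the other genes it was at least 67.9-fold lower, or 52.5-fold with the length and GC trends removed. With a floor of 3 counts per library the value was 83.9-fold, which lies above that bound and is not itself a bound of the interval. Dlk1 was 6.66-fold (4.85 to 9.36), H19 6.46-fold (5.12 to 8.24) and Ndn 4.25-fold (3.85 to 4.71) lower. Dio3 had 73 and 155 counts, and its level was 2.82-fold higher (2.13 to 3.78). It was 2.50-fold higher (1.88 to 3.35), without a call, after removal of those trends. Of 18 genes listed as germ cell genes with promoters methylated in somatic cells, 11 had 0 counts in both libraries, among them Dazl and Mael, and 2 were measured. Tdrkh had 266 and 521 counts, so it was not silent in either library, and its level was 2.61-fold higher (2.24 to 3.03). Brdt had 88 and 15 counts, and its level was 4.41-fold lower (2.53 to 8.21). These counts do not separate the parental alleles.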

How the data were processed

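Polyadenylated RNA of sorted MSPC was sequenced in 1 library per genotype. The authors deposited raw read counts per Ensembl gene, not normalized, and per the submitters' processing notes CASAVA, TopHat, edgeR and build mm9 were used. Versions, the read counter, the annotation and the use of strand were not given in the sources used here. Symbols were found for 34490 of 35275 identifiers, all 9 genes included. By GENCODE M21 only Dnmt3a (0.799% of exonic bases) and Tet2 (0.255%) share exons with another gene, in both cases antisense.

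Library totals (22328659 and 18010963 counts) were scaled with TMM in edgeR 4.0.16 (R 4.3.3), intervals were computed in SciPy 1.17.1, and calls needed 20 counts over both libraries. Medians use a prior count of 0.5. Lengths, GC content and chromosomes are those of GENCODE M21 (longest transcript), found for 99.5% of measured genes. Trends were lowess fits (span 0.3, statsmodels 0.14.6). The procedure was tested on simulated libraries that held counting error alone. That test cannot speak for spread between animals or for length and GC trends, since the simulated counts had neither. No test between genotypes was possible with 1 library each, and intervals and floors cover counting error only. Members and lists were chosen with earlier results of these data known. Named were all 9 genes, Ptpn11, the genes of the sort, Mki67, Rrm2 and Pcna, and per list the up to 4 genes called in each direction with the farthest interval bound. Other list genes, the motifs and the X chromosome were chosen after values or letters were seen. One gene that this rule names is not reported here. No gene was ranked by likeness to a member, since 2 libraries give 1 ratio per gene. Alternatives were upper-quartile factors, size factors of DESeq2 1.42.0, unscaled totals, totals without the 100 most abundant genes, trends removed, and other minimums, thresholds, interval levels and prior counts.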

Additional observations from a re-analysis of the deposited data

How the results depend on the processing

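Zfp57 was called higher and Tet1 lower under all 5 other scalings, and Tet2 lower under 4 of the 5. With the length and GC trends removed, 2 of the 9 genes were called higher (Zfp57 and Dnmt1) and 1 lower (Tet1), their median log2 ratio was 0.313, 930 of all measured genes were higher and 973 lower, and 5 genes of the related lists were called lower. The sign of the ratio of Dnmt3a and Tet3 differed there from that under TMM. With total counts, and also without the 100 most abundant genes in the totals, 5 genes of the related lists were called higher, without Apex1, Gadd45b and Gadd45g. Against TMM these scalings moved the median log2 ratio of all measured genes by -0.10 and -0.13, and the second gave 727 higher and 1314 lower calls (35.6% higher, against 45.7% of 917 and 1090). At 1.5-fold, 3 members, 18 genes of the related lists and 2063 genes in all were called higher, and 2046 genes in all lower. At 4-fold, 0 members and 223 genes were called higher, and 1 member and 265 genes lower. Of the other values, none changed sign among called genes. Depth limits Dnmt3b and, in the mutant library, Tet1, which rests on 6 counts. No paired analysis was possible because each genotype has 1 library.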

Other observations

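The chromosomes differed in their ratios, and the 9 genes can be read against the chromosome each lies on. Measured X-linked genes had a median log2 ratio of -1.15 over 431 genes, with 198 called lower and 3 higher, and the median was -1.04 with the length and GC trends removed. Xist, the X-linked RNA that silences an X chromosome and whose silencing DNA methylation helps to maintain, had 21878 control and 9051 mutant counts, a 1.82-fold lower level (1.77 to 1.86). The 501 measured genes of chromosome 15 had a median of 0.56, with 91 called higher and 17 lower, and a median of 0.59 with the trends removed. Medians of the other autosomes lay between -0.11 (chromosome 6) and 0.17 (chromosome 17). The middle 50% of genes lay between 0.01 and 1.02 on chromosome 15 and between -1.74 and -0.58 on the X chromosome. Cbx5, named above, lies on chromosome 15.

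None of the 9 genes lies on chromosome 15 or X. Uhrf1 (1.04) and Zfp57 (1.78) lie on chromosome 17, whose upper quartile was 0.66. Dnmt1 (0.93) lies on chromosome 9, whose upper quartile was 0.42. Tet1 (-3.81) on chromosome 10 and Tet2 (-1.42) on chromosome 3 lay below the lower quartiles of -0.54 and -0.60. The other members lay between the quartiles of their chromosomes. They were Trim28 (0.51, chromosome 7), Dnmt3a (-0.18, chromosome 12), Dnmt3b (-0.12, chromosome 2) and Tet3 (-0.05, chromosome 6). DNA copy number was not measured in these samples, and its part in these medians was not tested.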
